A study of Mus musculus with 34 samples.

Results

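Of the 10702 promoter peaks of trimethylated histone H3 lysine 4 (H3K4me3) in the deposited table, 429 carried a noncoding RefSeq identifier (prefix NR_) as the nearest annotated start site, and these 429 are described here. The other 10273 carried a coding identifier (prefix NM_). The 429 peaks belonged to 417 transcripts. By gene symbol and gene type, 207 peaks lay at numbered clones (Rik, Gm and similar symbols), 96 at microRNA hairpins, 37 at pseudogenes, 28 at small nucleolar or Cajal body RNAs (snoRNAs) and 21 at other named long noncoding RNAs. A further 16 lay at host genes of small RNAs, 11 at antisense or opposite-strand RNAs, 9 at genes now listed as protein-coding and 4 at other structured RNAs, such as the telomerase RNA Terc. The identifiers were matched to the RefSeq gene table of GRCm38.p6, 414 by accession and 14 by gene ID, and 1 was not matched.

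The cells were 3T3-L1, a mouse preadipocyte line that turns into adipocytes after confluence when given dexamethasone, insulin, IBMX and serum. H3K4me3 and RNA were measured in cells transduced for 24 hours, 4 days before induction, with lentivirus carrying a control hairpin against luciferase (shLuc) or hairpins against Kdm5a, Kdm5b and Kdm5c together (shKdm5ABC). Each was sampled at day 0 (confluent, before induction), at 4 hours and at day 2, with 2 libraries per group, so there were 12 H3K4me3 and 12 RNA libraries. The H3K4me3 demethylases KDM5A (day 0, 4 hours and day 2) and KDM5C (day 2) were mapped in cells for which the labels name no transduction, again with 2 libraries per group and an input. The labels do not say whether the 2 libraries of a group came from separate cultures, so p-values measure the spread between these libraries, which may be technical. For KDM5A that spread was taken from the trend over all peaks and not from the single peak.

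H3K4me3 marks nucleosomes beside active or poised transcription start sites, and the KDM5 enzymes remove it. Noncoding genes use the same mark. A microRNA is cut from a hairpin inside a longer primary transcript, so its promoter can lie far from the hairpin or be that of a protein-coding host. Most snoRNAs, which guide chemical modification of ribosomal RNA, are processed from introns of ribosomal protein genes or of host genes such as Gas5 and Snhg1. Other noncoding RNAs are transcribed away from a coding start site, in the opposite direction. The peak table gives each peak to the closest start site. Of the 93 microRNA genes with a peak, 74 lay by the RefSeq annotation inside another gene, 68 of them inside a coding gene, and 33 had a coding start site within 1000 bp. Of the 28 snoRNA genes, 27 lay inside another gene and 15 inside a ribosomal protein gene. For these, the peak may be that of the host.

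H3K4me3 libraries held 8375000 to 13589000 reads and KDM5A libraries 3871000 to 17601000. Kdm5a RNA was 7.735 to 8.025 (log2) in the 6 shLuc libraries and 6.768 to 7.17 in the 6 shKdm5ABC libraries, Kdm5c 7.977 to 8.492 and 6.518 to 7.168, and Kdm5b at day 0 8.442 and 8.472 against 7.762 and 7.718. The median of 9 adipocyte markers was 5.61 at day 0 and 11.1 at day 2 in shLuc RNA, that of 6 preadipocyte and fibroblast markers 11.4 and 9.58, and that of 3 macrophage markers -4.78 and -4.68. The H3K4me3 column names did not follow the RNA columns of the same name. Across 8588 promoters, the deviation of each H3K4me3 column from the mean of all columns was correlated with that of each RNA column. Columns Control_D0 (r = 0.547) and KDM5_KD_D2 (r = 0.342) were most like their own RNA column. Control_4h was most like RNA KDM5_KD_D0 (r = 0.628; own -0.132), Control_D2 most like RNA Control_4h (0.495; own 0.0251) and KDM5_KD_4h most like RNA Control_D2 (0.728; own -0.265). KDM5_KD_D0 was similar to RNA KDM5_KD_4h (0.293) and to its own (0.287). Over the 302 noncoding transcripts with tested RNA the most similar columns were the same, except that KDM5_KD_D0 was most like its own (0.325) and that KDM5_KD_D2 had r = 0.106 both with its own and with RNA KDM5_KD_D0. The share of reads in promoter peaks was 65.6 to 68.1% in columns Control_D0, Control_D2 and KDM5_KD_4h and 78.8 to 83.2% in the other 3. These correlations are over promoters within 1 set of libraries and carry no test. H3K4me3 is therefore given by column name, and no effect of knockdown or time is read from it. RNA and KDM5A columns are used as labelled; RNA columns named Control are shLuc and those named KDM5_KD are shKdm5ABC.

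RefSeq (GRCm38.p6) held a mature sequence for 86 of the 93 microRNA genes, 143 mature arms in all. The target choice of a microRNA rests on its seed, bases 2 to 8. There were 7 seeds shared by 2 or more of these genes, covering 13 genes. The sequences below are those of the shared seeds whose promoters are described in the next paragraphs, with miR-214 beside them because its hairpin shares the transcript of miR-199a-2; they are written 5′ to 3′ with the seed in capitals.
miR-199a-5p: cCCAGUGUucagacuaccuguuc
miR-199a-3p: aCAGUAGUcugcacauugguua
miR-199b-3p: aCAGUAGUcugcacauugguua
miR-214-3p: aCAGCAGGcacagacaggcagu
miR-148a-3p: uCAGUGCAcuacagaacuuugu
miR-152-3p: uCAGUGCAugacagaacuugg
miR-125b-5p: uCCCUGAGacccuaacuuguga
miR-193a-3p: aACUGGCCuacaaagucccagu
miR-193b-3p: aACUGGCCcacaaagucccgcu
miR-322-5p: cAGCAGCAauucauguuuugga
miR-497a-5p: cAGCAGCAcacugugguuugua
The miR-199 genes Mir199a-1 and Mir199a-2 gave the same 5p arm, with 0 mismatches over 23 bases, and the 3p arms of Mir199a-1, Mir199a-2 and Mir199b had 0 mismatches over 22 bases. The mature 3p sequence therefore does not tell which of the 3 genes made it, nor the 5p sequence whether Mir199a-1 or Mir199a-2 did. No 5p arm of Mir199b was among the sequences compared. The 3 promoter peaks are on different chromosomes.

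The noncoding peaks had a median level close to that of the coding ones, with wider quartiles. Their median H3K4me3 level, averaged over the 12 libraries, was 649.1 tags (per 10000000 reads; quartiles 295.5 and 983.5) against 627.4 tags (408.9 and 895.6) at coding peaks. Their median width was 2606 bp against 2393 bp, and per kilobase of peak they held 228.8 tags against 254.2. Under 20 tags lay 11 noncoding peaks (2.56%) and 75 coding peaks (0.73%). The centre lay upstream of the assigned start site in 41.5% of noncoding and 16.8% of coding peaks. These are descriptions of 2 sets of peaks in the same libraries, with no test. Without the 9 peaks at genes now listed as coding the median was 646.8 tags.

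The classes spanned a wide range of levels. Host genes of small RNAs had the highest median at 1148.6 tags, snoRNAs had 972.3 tags, antisense RNAs 837.1 tags, microRNAs 612.1 tags, clones 603.6 tags and pseudogenes 425.5 tags. The snoRNA peaks were also broad, with a median of 3905 bp. The strongest single peak was that of Neat1, the RNA scaffold of paraspeckles (5006 tags over 12444 bp). It was followed by the clone 9530052E02Rik (3942 tags), Malat1, a nuclear speckle RNA (3757 tags), the clone 2210408F21Rik (3149 tags) and Snora65, a snoRNA in an intron of Rpl12 (2804 tags). The weakest were Gm10638 (10.9 tags), Gm3716 (12.4 tags) and A830052D11Rik (12.9 tags).

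**Figure D1:**
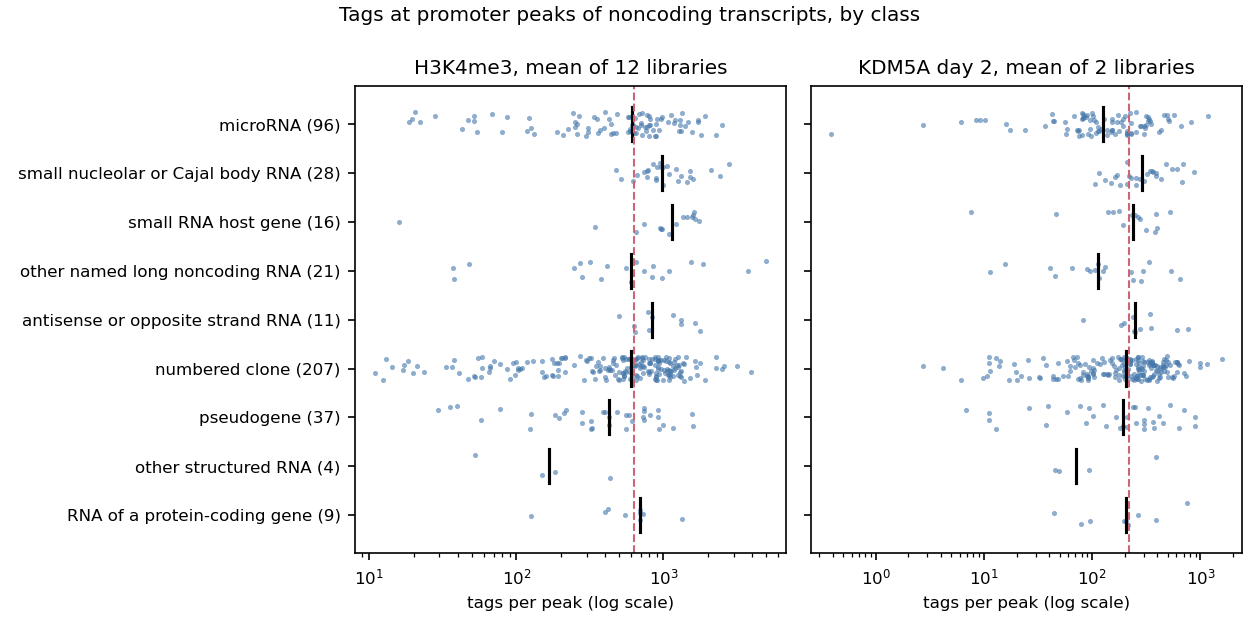
Mean H3K4me3 tags over the 12 libraries and day 2 KDM5A tags in overlapping peaks (log axes), for noncoding promoter peaks by transcript class. Peaks without KDM5A tags are not drawn in the KDM5A panel. Black marks are class medians over all peaks and the dashed line is the median of the 10273 coding peaks. In both panels the medians of host genes, snoRNAs and antisense RNAs lie above the coding median. That of genes now listed as protein-coding does so in H3K4me3 alone, and the other classes lie below in both.

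Many of the clones had a coding start site close by on the opposite strand. Of the 214 noncoding peaks whose start site had a row in the start-site table, 73 (34.1%) had a coding start site on the opposite strand within 1000 bp, against 836 of 8293 coding peaks (10.1%). Among the clones the share was 61 of 170 (35.9%) and among antisense RNAs 4 of 6. MicroRNA, snoRNA and other structured RNA peaks had no row in the start-site table, and pseudogene peaks had 2. The order of the 2 start sites was not compared, so pairs that point apart and pairs that overlap are both counted. At such a pair the 2 promoters can share 1 peak. An example is 2310001K24Rik, opposite Fitm2, a protein of lipid droplet formation.

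By column, the noncoding median was 566 tags in Control_D0, 561.2 in Control_D2 and 581.6 in KDM5_KD_4h, and 708.7 in Control_4h, 690.6 in KDM5_KD_D0 and 705.7 in KDM5_KD_D2. The coding medians were 566.9, 563.9 and 577.1, then 681.9, 684.2 and 670.2. Both sets of peaks were thus lower in the 3 columns with the smaller share of reads in promoter peaks. The noncoding share of all promoter tags stayed between 4.024 and 4.393% in the 12 libraries. Control_4h was the highest column at 149 noncoding peaks (34.7%) and at 26.8% of coding peaks, and KDM5_KD_D0 at 106 (24.7%) and 35.6%.

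Differences between columns were tested with limma on log2(tags + 1) over all 10702 peaks, with Benjamini-Hochberg adjustment and a threshold of 0.05. For the pairs of columns that the labels imply as knockdown against control, 151 noncoding peaks passed between KDM5_KD_D0 and Control_D0 (32.9% of all peaks passed), 150 higher and 1 lower (32.7 and 0.196% of all peaks). Between KDM5_KD_4h and Control_4h, 190 passed (35.9% of all peaks), 20 higher and 170 lower (1.62 and 34.3% of all). Between KDM5_KD_D2 and Control_D2, 132 passed (24% of all), 128 higher and 4 lower (23.8 and 0.243%). In each pair most peaks shifted in the same direction. The median log2 difference was 0.29 over all peaks and 0.36 over noncoding peaks in the first pair, -0.23 and -0.33 in the second, and 0.25 and 0.27 in the third. The difference was above 0 at 86, 25.8 and 87.9% of all peaks in these pairs.

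With each library centred on its own median, 59 noncoding peaks passed in the first pair (49 higher, 10 lower; 10.7% of all peaks), 175 in the second (54 higher, 121 lower; 32.5%) and 52 in the third (46 higher, 6 lower; 7.77%). The other pairs of columns were read in the same way. Between Control_4h and Control_D0, 144 peaks passed, all higher (27.9% of all peaks passed, 27.8% higher and 0.00934% lower), and 29 after centring (4.91% of all). Between Control_D2 and Control_D0, 15 passed, 11 higher and 4 lower (1.97% of all peaks, 1.31% higher and 0.663% lower). Between KDM5_KD_D0 and Control_D2 158 passed, 157 higher and 1 lower (33.1% of all peaks, with 33.1% higher and 0.0374% lower), and 57 after centring (10.8% of all). Between KDM5_KD_D2 and KDM5_KD_4h 151 passed, all higher (29.6% of all peaks, with 29.6% higher and 0.0561% lower), and after centring 93, 84 higher and 9 lower (18.4% of all). Between KDM5_KD_4h and Control_D0 79 passed, 34 higher and 45 lower (15.6% of all peaks, 5.49% higher and 10.1% lower), and 78 after centring, 28 higher and 50 lower (15.5% of all). These pairs share columns and are not independent. The coding peaks passed in 32.8, 35.5, 23.7, 27.6, 1.91, 33, 29.4 and 15.5% in the same order of pairs.

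**Figure D2:**
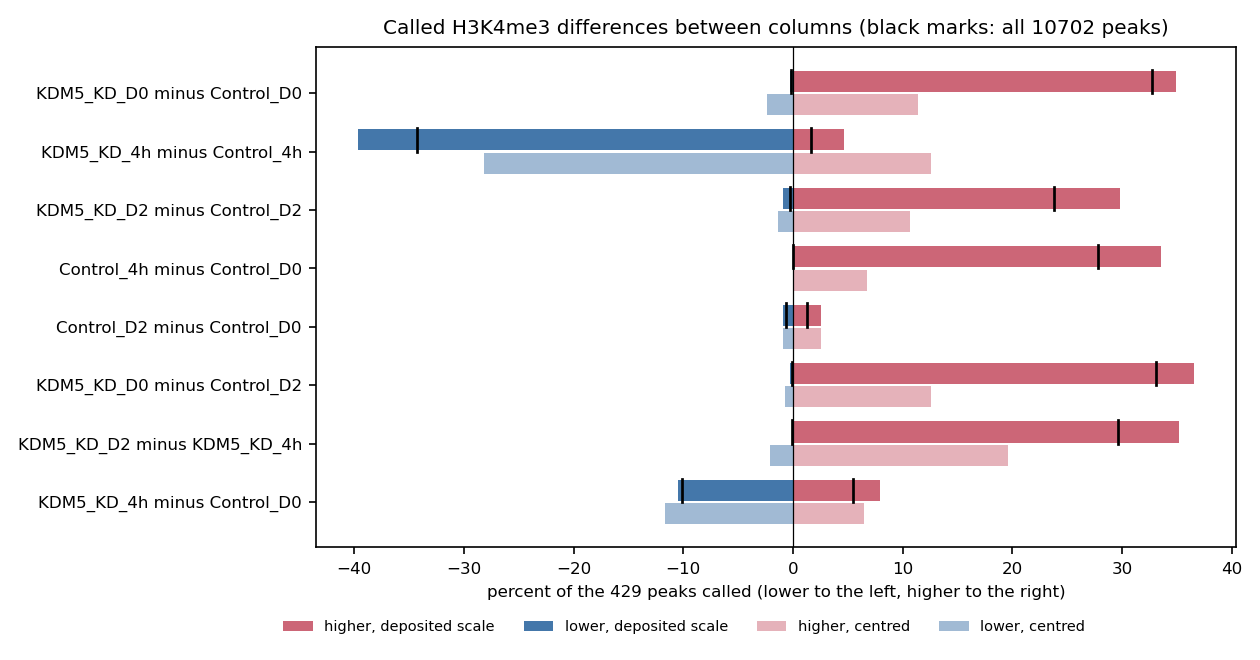
Percent of the 429 noncoding peaks that passed in each of 8 pairs of H3K4me3 columns, higher to the right and lower to the left, on deposited values and after centring each library on its median; black marks give all 10702 peaks. The Control_4h to Control_D0 pair went from 144 to 29 peaks with centring.

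The fits above did not use the replicate numbers, although same-numbered libraries deviated together. With the number as a block, 264, 286, 221, 264, 103, 253, 247 and 186 noncoding peaks passed in those pairs, where 60.5, 58.2, 53.1, 59.3, 15.4, 59.9, 50.7 and 41.6% of all peaks passed. Leaving out 1 library at a time moved several counts by over 1.5 times. The first pair fell to 74 without Control_D0 replicate 1 and to 75 without KDM5_KD_D0 replicate 1. The third fell to 55, 67 and 62 without Control_D2 replicate 1, KDM5_KD_D2 replicate 1 and KDM5_KD_D2 replicate 2. Control_4h against Control_D0 fell to 51, 95 and 78 without Control_D0 replicate 1, Control_4h replicate 1 and Control_4h replicate 2, and Control_D2 against Control_D0 to between 1 and 6 without any of its 4 libraries. KDM5_KD_D0 against Control_D2 fell to 77, 85 and 97 without Control_D2 replicate 1, KDM5_KD_D0 replicate 1 and KDM5_KD_D0 replicate 2. KDM5_KD_D2 against KDM5_KD_4h fell to 88 and 95 without KDM5_KD_4h replicate 1 and KDM5_KD_D2 replicate 2, and KDM5_KD_4h against Control_D0 to 38, 38 and 19 without Control_D0 replicate 1, Control_D0 replicate 2 and KDM5_KD_4h replicate 1.

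Many microRNA peaks differed between columns. Of the 96, 49 were higher and 1 lower in KDM5_KD_D0 than in Control_D0 (median log2 difference 0.55; 32.7 and 0.196% of all peaks). In KDM5_KD_4h 3 were higher and 50 lower than in Control_4h (median -0.58; 1.62 and 34.3% of all). In KDM5_KD_D2 33 were higher and 2 lower than in Control_D2 (median 0.37; 23.8 and 0.243% of all). In KDM5_KD_D2 against KDM5_KD_4h, 41 were higher and 0 lower (median 0.55; 29.6 and 0.0561% of all). Their median level was 487.2, 442.3 and 465.7 tags in Control_D0, Control_D2 and KDM5_KD_4h, and 714.4, 688.4 and 668.5 tags in Control_4h, KDM5_KD_D0 and KDM5_KD_D2.

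The 3 miR-199 genes each lie inside a dynamin gene, a family of membrane-cutting enzymes. Mir199a-1, in Dnm2 (mm9 chr9:21297490-21303463), held 291.6 and 330 tags in the 2 libraries labelled Control_D0, 1568 and 1454 in Control_4h, 150.6 and 149.5 in Control_D2, 1209 and 1243 in KDM5_KD_D0, 72.6 and 101 in KDM5_KD_4h, and 832 and 1042 in KDM5_KD_D2. The 3 high columns did not overlap the 3 low ones, and KDM5_KD_4h was the lowest. The log2 difference was -4.13 ± 0.17 (SE) in KDM5_KD_4h against Control_4h (limma, adjusted p = 2.51e-06), 1.98 ± 0.17 in KDM5_KD_D0 against Control_D0 (0.000193) and 3.43 ± 0.17 in KDM5_KD_D2 against KDM5_KD_4h (1.59e-05). These 3 calls were kept under the 5 alternative settings and without any 1 of their libraries.

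Mir199b, in Dnm1 (mm9 chr2:32172228-32178004), followed the same order of columns. It held 359.9 and 401.2 tags in Control_D0, 1415 and 1455 in Control_4h, 300.1 and 400 in Control_D2, 1336 and 1422 in KDM5_KD_D0, 237 and 246.3 in KDM5_KD_4h, and 866.9 and 1184 in KDM5_KD_D2. Again the 3 high columns stood clear of the 3 low ones. It was lower by a log2 difference of -2.565 ± 0.169 in KDM5_KD_4h against Control_4h (adjusted p = 9.65e-06). In KDM5_KD_D0 it was higher than in Control_D0 by 1.86 ± 0.17 (0.000245).

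The third gene, Mir199a-2, lies with Mir214 in the long noncoding RNA Dnm3os, antisense to Dnm3. Its peak (mm9 chr1:164147349-164150051) held 1195 and 853.6 tags in Control_D0, 856.7 and 720.1 in Control_4h, 752.8 and 880.7 in Control_D2, 538.6 and 686.6 in KDM5_KD_D0, 468.2 and 602.8 in KDM5_KD_4h, and 728.4 and 768.1 in KDM5_KD_D2. It was highest in Control_D0 and did not separate the same columns. In KDM5_KD_D0 it was lower than in Control_D0 by a log2 difference of -0.73 ± 0.19 (adjusted p = 0.0182), a call lost without Control_D0 replicate 1 or KDM5_KD_D0 replicate 1 (highest adjusted p 0.147). It was the only noncoding peak called lower in that pair.

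Mir214, in the same transcript (mm9 chr1:164153132-164154203), did separate them, at a lower level. Its peak held 23.1 and 27.8 tags in Control_D0, 238.4 and 152.4 in Control_4h, 20.2 and 24.7 in Control_D2, 122.5 and 133.9 in KDM5_KD_D0, 14.5 and 15.7 in KDM5_KD_4h, and 90.8 and 93.3 in KDM5_KD_D2. The log2 difference in KDM5_KD_4h against Control_4h was -3.57 ± 0.28 (adjusted p = 1.62e-05). The small peak assigned to Dnm3os itself had a mean of 16 tags, under 20. In GRCm38 the start window of Dnm3os (chr1:162217373-162217672, plus strand) ends just before the miR-199a-2 5p arm (chr1:162217844-162217866). The strong peak assigned to Mir199a-2 may thus cover the Dnm3os start, which was not checked across builds. Within 1 transcription unit, the strong peak at Mir199a-2 and the weaker downstream peak at Mir214 were ordered differently across columns. That difference was not tested.

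**Figure D3:**
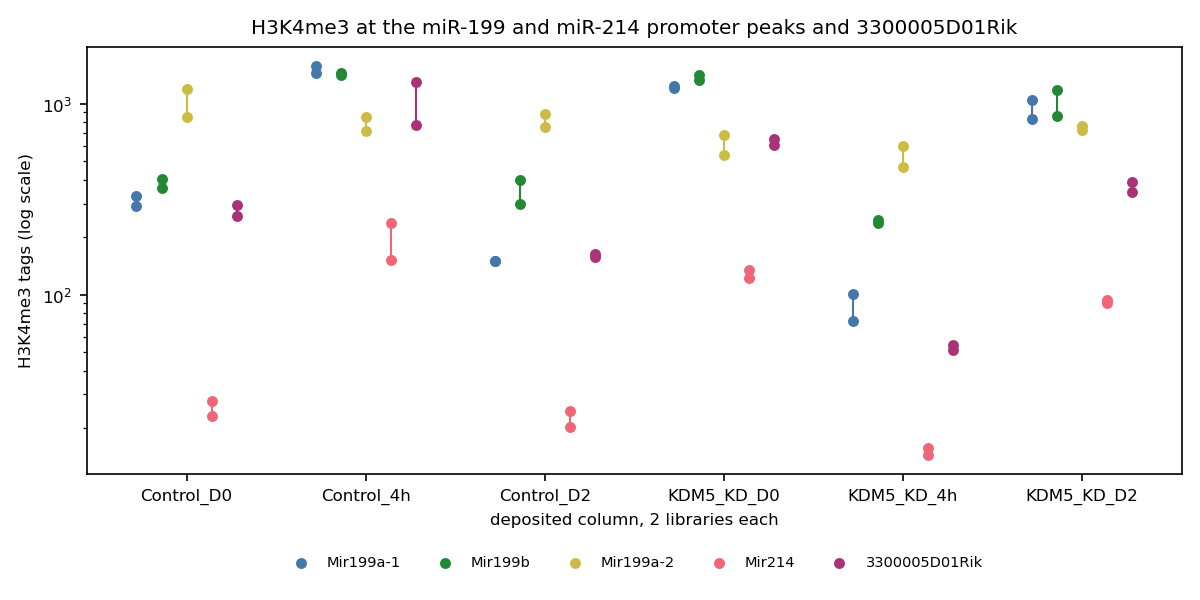
H3K4me3 tags (log axis) in each library of the 6 columns for the peaks at Mir199a-1, Mir199b, Mir199a-2, Mir214 and the clone 3300005D01Rik. Each point is 1 of 2 libraries. Mir199a-1 ranges from 72.6 to 1568 tags and Mir199a-2 from 468.2 to 1195.

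Mir3089 separated the same columns. Its peak (mm9 chr2:30571246-30578120) held 236.1 and 386.4 tags in Control_D0, 1588 and 1808 in Control_4h, 187.9 and 237 in Control_D2, 1656 and 1787 in KDM5_KD_D0, 168.3 and 230.6 in KDM5_KD_4h, and 1015 and 1391 in KDM5_KD_D2. Its 3 high columns lay several fold above the others. It differed by -3.10 ± 0.25 (log2) in KDM5_KD_4h against Control_4h (adjusted p = 1.89e-05). Mir7000, in Mapk8ip1, was also lower in that pair (-2.07 ± 0.16, 1.66e-05), but its columns did not separate in this way: it held 626.1 and 667.8 tags in Control_D0 and 576.8 and 694.8 in KDM5_KD_D2.

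Other shared seeds joined Mir148a with Mir152, and the miR-125b, miR-193 and miR-322 and miR-497 genes. Mir148a held 690.9 and 624.4 tags in Control_D0, 1049 and 894.6 in Control_4h, 417.3 and 423.2 in Control_D2, 934.5 and 796.2 in KDM5_KD_D0, 487.6 and 494.2 in KDM5_KD_4h, and 653.2 and 668.1 in KDM5_KD_D2. Mir152, in Copz2 and with the same seed, held between 459.5 and 716.9 tags in the 12 libraries. Both were lower in KDM5_KD_4h than in Control_4h, Mir148a by a log2 difference of -0.98 ± 0.12 (adjusted p = 0.00016) and Mir152 by -0.53 ± 0.13 (0.009). Mir125b-1, in Mir100hg, had a mean of 1321 tags and Mir125b-2 had 208, with the same 5p arm. The replicates of Mir125b-1 differed widely, with 2304 and 1191 tags in Control_4h. Mir193a had a mean of 1561 tags and Mir193b 360.7, and Mir322 had 702.2 tags and Mir497 86.7.

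Some peaks were high in other columns. Gm11978, a pseudogene whose start site lies within 1000 bp of that of Ramp3, a receptor activity-modifying protein, held 24.3 and 24.3 tags in Control_D0, 42.3 and 52.4 in Control_4h, 442.6 and 320.7 in Control_D2, 447 and 448.2 in KDM5_KD_D0, 35.8 and 29.1 in KDM5_KD_4h, and 145.7 and 200.8 in KDM5_KD_D2. Here Control_D2 and KDM5_KD_D0 stood above all others. It differed by 4.15 ± 0.25 (log2) in KDM5_KD_D0 against Control_D0 (adjusted p = 3.2e-05) and 3.90 ± 0.25 in Control_D2 against Control_D0 (0.000106). Mir1904, in Pde4d, was also higher in Control_D2 than in Control_D0, by 1.40 on the log2 scale (0.00398), a call lost without Control_D2 replicate 1 (0.0656).

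In KDM5_KD_4h against Control_4h 11 of 28 snoRNA peaks were higher and 0 lower (median log2 difference 0.53; 1.62% of all peaks were higher), where the median of all peaks was -0.23. In KDM5_KD_4h against Control_D0 13 were higher and 0 lower (median 0.66, where 5.49% of all peaks were higher). Of these, 10 were among the 15 inside ribosomal protein genes, where the differences ran from 0.40 to 1.10 (median 0.664). The other 13 snoRNA peaks shifted to a similar degree, with 3 higher and differences of 0.0769 to 0.938 (median 0.652). In KDM5_KD_D2 against KDM5_KD_4h 0 of 28 passed. The class median rose in the order Control_D0 (732 tags), Control_4h (793.1), KDM5_KD_D0 (967), Control_D2 (1063), KDM5_KD_D2 (1088) and KDM5_KD_4h (1224).

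Snora62, in Rpsa, held 552 and 575.7 tags in Control_D0, 726.4 and 693.3 in Control_4h, 976 and 890.4 in Control_D2, 923.8 and 826.4 in KDM5_KD_D0, 1291 and 1129 in KDM5_KD_4h, and 1120 and 962.2 in KDM5_KD_D2. Control_D0 was lowest and KDM5_KD_4h highest, without overlap. The log2 difference between them was 1.10 ± 0.11 (adjusted p = 0.000309). Snord43, in Rpl3, differed by 1.10 ± 0.22 (0.00834), a call lost without Control_D0 replicate 2 or KDM5_KD_4h replicate 1 (highest adjusted p 0.0848). Snora7a, in Rpl32, differed by 0.79 ± 0.10 (0.000759). Where a snoRNA lies in an intron of its host, a change at the snoRNA cannot be told apart from one at the ribosomal protein gene.

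Of 11 snoRNA host genes, 6 were higher and 1 lower in KDM5_KD_4h than in Control_D0 (median log2 difference 0.57; 5.49 and 10.1% of all peaks). In KDM5_KD_4h against Control_4h 4 were higher and 1 lower (1.62 and 34.3% of all peaks). Gas5, a growth arrest-specific host gene, held 1592 and 1355 tags in Control_D0, 1532 and 1283 in Control_4h, 1937 and 2106 in Control_D2, 1404 and 1611 in KDM5_KD_D0, 2287 and 2199 in KDM5_KD_4h, and 1964 and 1776 in KDM5_KD_D2. KDM5_KD_4h lay above all other libraries. Its log2 difference was 0.68 ± 0.12 against Control_4h (adjusted p = 0.0018) and 0.61 ± 0.12 against Control_D0 (0.0091). Snhg1 was higher in KDM5_KD_4h than in Control_4h by 0.81 ± 0.23 (0.0193), a call lost without Control_4h replicate 2, KDM5_KD_4h replicate 1 or KDM5_KD_4h replicate 2 (highest 0.154). Of 6 microRNA host genes, 4 were lower in KDM5_KD_4h than in Control_4h and 0 higher (median -1.24; 34.3% of all peaks were lower).

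**Figure D4:**
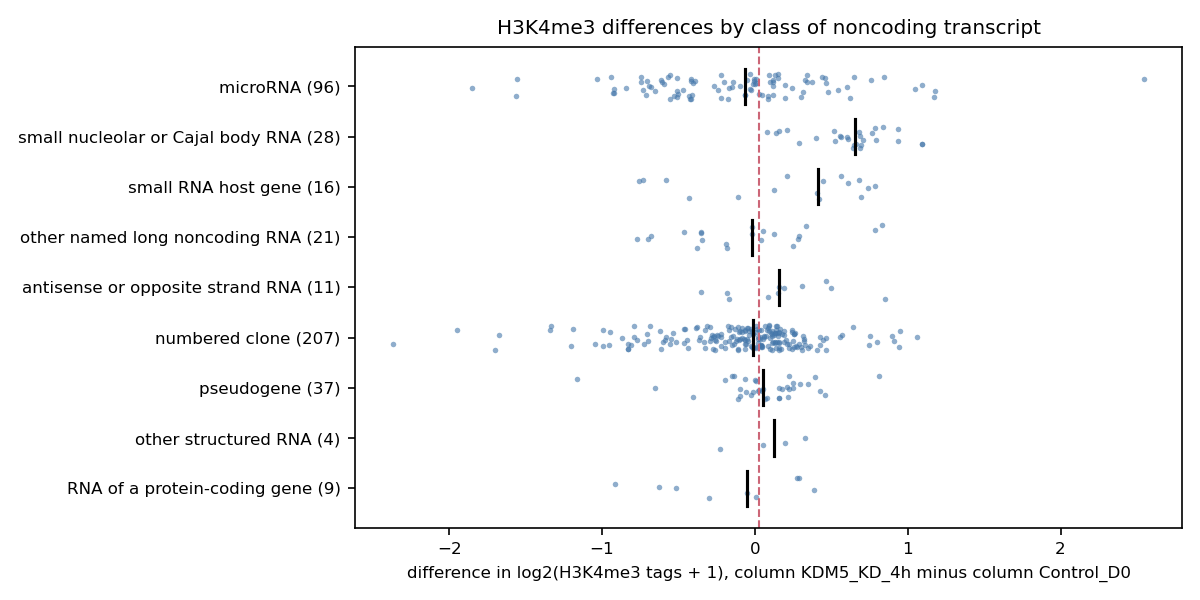
Log2 difference in H3K4me3 between columns KDM5_KD_4h and Control_D0 for each noncoding peak by class; the dashed line is the median of all 10702 peaks. The 28 snoRNA peaks all lie above 0, with 13 called higher.

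Of the 21 other named long noncoding RNAs, 7 were higher and 0 lower in KDM5_KD_D0 than in Control_D0 (32.7 and 0.196% of all peaks), and 0 were higher and 9 lower in KDM5_KD_4h than in Control_4h (1.62 and 34.3%). Peg13, an imprinted RNA expressed from the paternal allele (mm9 chr15:72637627-72641963), held 440.9 and 594 tags in Control_D0, 1020 and 980.7 in Control_4h, 474.9 and 554 in Control_D2, 952.3 and 1009 in KDM5_KD_D0, 391.8 and 413.9 in KDM5_KD_4h, and 1033 and 954.6 in KDM5_KD_D2. The high columns were those of Mir199a-1 and Mir199b. The log2 difference was 0.94 ± 0.14 in KDM5_KD_D0 against Control_D0 (adjusted p = 0.0017) and -1.31 ± 0.14 in KDM5_KD_4h against Control_4h (9.2e-05). Hotair, a Hox cluster RNA, had a low peak of 10.6 to 96.9 tags, lower in KDM5_KD_4h than in Control_4h by a log2 difference of -2.38 ± 0.36 (0.0006). H19, another imprinted RNA, had a mean of 36.9 tags. Malat1 differed by at most 0.24 on the log2 scale in any of the 8 pairs, and none passed.

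Among called noncoding peaks with a mean of at least 20 tags, the clone 3300005D01Rik (mm9 chr17:5798604-5803354) was lower by the most in KDM5_KD_4h against Control_4h. It held 296.2 and 257 tags in Control_D0, 1301 and 775.9 in Control_4h, 163.7 and 157 in Control_D2, 650.3 and 608.6 in KDM5_KD_D0, 54.2 and 51.2 in KDM5_KD_4h, and 343.9 and 388.3 in KDM5_KD_D2. No 2 columns overlapped. The difference on the log2 scale was -4.23 ± 0.22 (adjusted p = 3.48e-06), and against Control_D0 it was -2.37 ± 0.22 (0.000171).

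The windows below show how CpG content ranged among start sites of these genes. They give 300 bases (250 before to 50 after the start site, RefSeq GRCm38.p6, in the direction of transcription) for Dnm3os and 3300005D01Rik, whose RNA fell with induction, and for Snhg1 and the second start site of Gas5, with every CG in capitals. They are linked to the mm9 peaks by gene name alone.
Dnm3os: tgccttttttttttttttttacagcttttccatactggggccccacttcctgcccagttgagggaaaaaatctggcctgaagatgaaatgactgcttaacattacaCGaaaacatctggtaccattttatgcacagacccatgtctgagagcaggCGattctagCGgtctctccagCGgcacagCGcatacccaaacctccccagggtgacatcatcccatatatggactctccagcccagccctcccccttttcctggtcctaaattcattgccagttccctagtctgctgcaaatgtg
3300005D01Rik: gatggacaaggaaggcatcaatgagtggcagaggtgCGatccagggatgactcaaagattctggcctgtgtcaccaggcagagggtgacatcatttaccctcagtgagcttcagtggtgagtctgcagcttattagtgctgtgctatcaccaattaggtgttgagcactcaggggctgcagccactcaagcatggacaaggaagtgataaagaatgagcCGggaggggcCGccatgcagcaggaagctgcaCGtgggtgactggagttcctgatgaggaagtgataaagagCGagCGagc
Snhg1: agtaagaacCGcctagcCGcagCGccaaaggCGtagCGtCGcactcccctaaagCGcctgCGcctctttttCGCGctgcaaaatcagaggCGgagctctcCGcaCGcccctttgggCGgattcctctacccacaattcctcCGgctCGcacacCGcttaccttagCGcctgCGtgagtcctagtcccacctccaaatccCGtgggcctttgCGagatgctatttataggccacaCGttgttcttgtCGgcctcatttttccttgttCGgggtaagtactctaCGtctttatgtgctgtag
Gas5: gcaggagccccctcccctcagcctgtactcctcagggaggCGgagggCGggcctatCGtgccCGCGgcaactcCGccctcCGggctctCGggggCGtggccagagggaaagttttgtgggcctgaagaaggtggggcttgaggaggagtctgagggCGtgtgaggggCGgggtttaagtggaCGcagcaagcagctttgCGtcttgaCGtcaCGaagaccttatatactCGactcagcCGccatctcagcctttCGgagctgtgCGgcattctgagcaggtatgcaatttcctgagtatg
The window of Dnm3os (chr1:162217373-162217672, plus strand) held 5 CG and an observed to expected CpG ratio of 0.298, and that of 3300005D01Rik (chr17:5798407-5798706, plus strand) 6 CG and 0.297. Snhg1 (chr19:8723237-8723536, plus strand) held 25 CG and 1.07, and Gas5 (chr1:161034916-161035215, plus strand) 19 CG and 0.672.

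Of the 210 noncoding promoters with a sequence, 167 were those of numbered clones, and none were those of microRNAs, snoRNAs or other structured RNAs. Across the 210, the median CpG ratio was 0.74 against 0.785 at 8022 coding promoters with a peak and 0.389 over all 27025 promoters of the table. A ratio of at least 0.6 was found in 67.6, 77.3 and 36.5% of them. The letters CCGCCC (either strand, which include a CG) were found in 61.9% of noncoding, 68.2% of coding and 35.9% of all promoters, and TATAAA (either strand) in 9.05, 6.39 and 14.2%. CCGGAAG (either strand, also with a CG) was found in 17.1, 19 and 9.12%. The 142 noncoding peaks whose promoter had a ratio of at least 0.6 had a median of 708.7 H3K4me3 tags and 246.8 day 2 KDM5A tags, and the 68 below it 350 and 102.1. A match describes letters and shows no binding.

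RNA was given as log2 normalised tags per kilobase of transcript, so levels can be compared between genes. Of the 417 transcripts, 337 had a row and 302 passed the filter of at least 1 (log2) in 2 libraries. The median level of the 337, without the filter, was 4.21, against 7.18 for 8478 coding transcripts with a peak and a row. Short rows are a limit: in 18 of the 36 microRNA rows tested, at least 6 of 12 libraries lay within 0.05 of the lowest value of the row, against 0.842% of all transcripts. Mir345 is an example, with 2.52 to 2.55 in 9 of its libraries. The RNA protocol selects polyadenylated RNA and uses a kit (TruSeq RNA v2) that does not mark strand, so microRNA and snoRNA rows hold reads of the host or of overlapping transcripts, and the rows of Dnm3os, Mir199a-2 and Mir214 share reads.

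In shLuc cells 82 noncoding transcripts changed between day 0 and 4 hours (42.3% of all 13534 transcripts did), 30 up and 52 down (20.7 and 21.6% of all). Between day 0 and day 2 97 changed (55% of all), 37 up and 60 down (27.1 and 27.8% of all). Of the 157 clones, 9 rose and 36 fell at 4 hours, and 18 rose and 42 fell at day 2. Of 27 snoRNA rows, 7 rose and 0 fell at 4 hours (median log2 difference 0.50), and 3 rose and 0 fell at day 2.

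The transcript of miR-199a-2 and miR-214 fell with induction. Dnm3os RNA was 9.40 and 9.20 at day 0, 7.52 and 7.79 at 4 hours and 5.74 and 5.41 at day 2 in shLuc cells. Its level dropped at each time without overlap. The log2 difference from day 0 was -1.64 ± 0.25 at 4 hours (limma, adjusted p = 0.000567) and -3.73 ± 0.25 at day 2 (1.79e-06). The overlapping rows fell at day 2 as well, Mir214 by -3.35 ± 0.41 (6.92e-05) and Mir199a-2 by -2.30 ± 0.17 (2.93e-06). The clone 3300005D01Rik fell from 8.09 and 7.76 to 4.57 and 3.83, a log2 difference of -3.73 ± 0.25 (1.86e-06).

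Other noncoding RNAs rose. The clone 2310001K24Rik was 3.98 and 4.13 at day 0, 5.73 and 5.76 at 4 hours and 7.45 and 7.19 at day 2. It rose by 1.69 ± 0.17 at 4 hours (adjusted p = 4.91e-05) and 3.27 ± 0.17 at day 2 (5.5e-07). Reads of Fitm2, which starts beside it on the other strand, cannot be told apart where the 2 overlap. Snora65, in Rpl12, was 7.34 and 7.32 at day 0, 9.41 and 8.79 at 4 hours and 8.55 and 8.24 at day 2, a rise of 1.77 ± 0.18 at 4 hours (4.94e-05). Snhg1 rose by 1.07 ± 0.27 at 4 hours (0.00988) and Gas5 by 0.58 ± 0.12 (0.00321). H19 rose by 2.35 ± 0.70 at day 2 (0.0161), a call lost without Control_D0 replicate 2 or Control_D2 replicate 1 (highest 0.14).

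Trp53cor1, a p53-induced RNA beside Cdkn1a, fell from 4.48 and 4.79 at day 0 to 2.15 and 2.88 at 4 hours and 2.56 and 3.04 at day 2. The log2 difference was -2.12 ± 0.27 at 4 hours (adjusted p = 0.000233). Gm11978 rose from 0.70 and 0.37 at day 0 to 2.33 and 2.13 at 4 hours, a log2 difference of 1.69 ± 0.21 (0.000192).

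**Figure D5:**
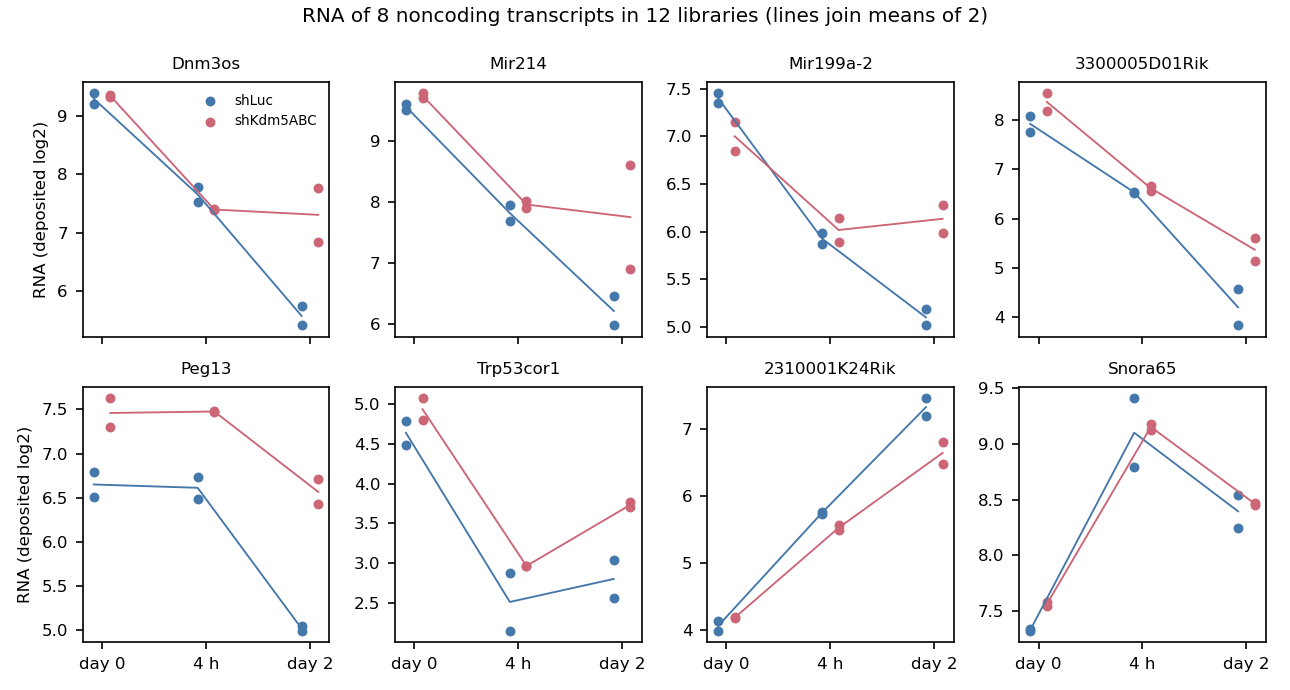
RNA (log2 normalised tags per kilobase) in each of the 12 libraries for 8 noncoding transcripts, shLuc and shKdm5ABC at day 0, 4 hours and day 2. Dnm3os, Mir214, Mir199a-2 and 3300005D01Rik fall with time, and Peg13 is higher in every shKdm5ABC library than in the shLuc libraries of the same time.

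Few noncoding RNAs differed between shKdm5ABC and shLuc. At day 0 3 passed (1.51% of all transcripts), 2 higher and 1 lower (0.606 and 0.901% of all). At 4 hours 2 passed, both higher (1.44% of all, 0.798% higher and 0.643% lower). At day 2 11 passed (9% of all), 8 higher and 3 lower (5.66 and 3.34%). All calls at day 0 and at 4 hours were lost without any 1 of their libraries. With the replicate number as a block 14, 9 and 42 of the 302 passed, where 9.44, 9.68 and 28.1% of all transcripts passed. At day 2 the count was 4, 2 and 2 without Control_D2 replicate 1, Control_D2 replicate 2 and KDM5_KD_D2 replicate 1.

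Peg13 was higher at every time. Its RNA was 6.51 and 6.79 in shLuc against 7.29 and 7.62 in shKdm5ABC at day 0, 6.49 and 6.74 against 7.48 and 7.47 at 4 hours, and 4.995 and 5.046 against 6.71 and 6.43 at day 2. The groups did not overlap at any time. The log2 difference was 0.81 ± 0.17 at day 0 (limma adjusted p = 0.0498), 0.86 ± 0.17 at 4 hours (0.0422) and 1.55 ± 0.17 at day 2 (0.00167), and the last was kept without any 1 library. Of 4 other settings, the day 0 call was kept in 2, the 4 hour call in 3 and the day 2 call in 4. The KDM5A peak of Peg13 held 231.2 and 135.2 tags at day 0, 223.6 and 87.8 at 4 hours and 242.9 and 229.6 at day 2. No KDM5C peak overlapped the Peg13 promoter peak.

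The miR-199a-2 and miR-214 transcript and the clone 3300005D01Rik, which fell with time in shLuc cells, were higher in shKdm5ABC at day 2. Dnm3os was 7.77 and 6.85 in shKdm5ABC at day 2 against 5.74 and 5.41 in shLuc, a difference of 1.73 ± 0.25 (adjusted p = 0.00418), kept without any 1 library. At day 0 the 2 groups overlapped, with 9.33 and 9.36 against 9.40 and 9.20. Mir199a-2 differed by 1.03 ± 0.17 (0.00742), lost without Control_D2 replicate 2 or KDM5_KD_D2 replicate 1 (highest 0.0789). Mir214 differed by 1.54 ± 0.41 (0.045), lost without Control_D2 replicate 1, Control_D2 replicate 2 or KDM5_KD_D2 replicate 1 and kept in 2 of 4 other settings. The clone 3300005D01Rik differed by 1.17 ± 0.25 (0.0209), lost without Control_D2 replicate 2 or KDM5_KD_D2 replicate 1. The median of the adipocyte markers was 11.1 in shLuc and 10.4 in shKdm5ABC at day 2, and that of the preadipocyte and fibroblast markers 9.58 and 10.2. Their part in these differences was not tested.

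Of the others at day 2, 2310015A10Rik was higher by 1.28 ± 0.27 (adjusted p = 0.0203) and Gm2115 by 1.78 ± 0.39 (0.0216). Gm3716 was higher by 1.12 ± 0.28 (0.0368). Lower were Gm13363 by -1.23 ± 0.34 (0.0487), Mir5133 by -0.99 ± 0.22 (0.0242) and 2310001K24Rik by -0.68 ± 0.17 (0.0354). Each of these was lost without at least 3 of the 4 libraries in turn, Control_D2 replicate 1, Control_D2 replicate 2 and KDM5_KD_D2 replicate 1 among them, and Mir5133 without KDM5_KD_D2 replicate 2 as well. Of 4 other settings, the Gm13363 call was kept in 2 and the Gm3716 call in 3. Kantr, an RNA beside Kdm5c, was lower at day 0, with 4.29 and 4.48 in shKdm5ABC against 5.47 and 5.32 in shLuc (-1.01 ± 0.21, limma adjusted p = 0.0491). That call was kept in 2 of 4 other settings. Mir199a-2 alone passed the limma interaction test of the knockdown difference between day 2 and day 0 (1 of 302, where 0.31% of all transcripts passed). Its change was 1.43 ± 0.24 (adjusted p = 0.0471). The call was kept in 1 of 4 other settings and lost in most leave-one-out fits. The overlapping Dnm3os row changed in the same direction without passing.

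KDM5A lay at almost all of these promoters. A KDM5A peak overlapped 408 of 429 noncoding peaks (95.1%) by at least 1 bp, against 96.5% of coding peaks. The median of the summed day 2 tags was 195.8 at noncoding and 219.5 at coding peaks, where the input had 12.6 and 13.5 tags. By class the median was 288.4 tags at snoRNAs, 239.9 at host genes, 206.3 at clones, 124.7 at microRNAs and 113.1 at named long noncoding RNAs. Per library the noncoding median was 231.2 and 98.9 tags at day 0, 191.8 and 116.3 at 4 hours and 217.9 and 170.1 at day 2, and the first of each pair was the higher. The share of reads in KDM5A peaks ran from 19.4 to 42.5% over the 6 libraries, and its part in these differences was not tested.

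The highest KDM5A level was at the clone B930059L03Rik, with 1511 and 684 tags at day 0, 1294 and 1186 at 4 hours and 2025 and 1165 at day 2. The replicates at day 0 and day 2 differed widely. Its RNA was low, 1.67 to 3.31 (log2) in the 12 libraries. No KDM5A peak overlapped Hotair or Mir125b-2. Trp53cor1, whose peak held 206 to 668 H3K4me3 tags, had 0 to 20.4 KDM5A tags.

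Tests over all 87525 KDM5A peaks called few of the 525 that overlapped a noncoding promoter peak. In this fit limma shrank the spread of every peak fully to the trend over all KDM5A peaks. The SE and p-value of a KDM5A peak therefore do not use the spread of that peak between its libraries. Between 4 hours and day 0 none passed (0.0606% of all peaks did) by limma or by edgeR, and 9 had an unadjusted p under 0.05. Between day 2 and day 0 1 passed, higher at day 2 (0.173% of all, 0.136% higher and 0.0366% lower). Between day 2 and 4 hours 3 passed, 1 higher and 2 lower at day 2 (0.607% of all, 0.123% higher and 0.483% lower). With each library centred on its median, 1 was higher and 3 lower at day 2 against day 0 (1.45% of all peaks passed), and 3 were higher and 3 lower at day 2 against 4 hours (3.2%). Centring moved the median log2 difference of all KDM5A peaks between day 2 and day 0 from 0.37 to -0.17. The one at day 2 against day 0 was a secondary peak of Gm15417 (mm9 chr3:89191030-89193280), opposite Zbtb7b, with 14.6 and 10.8 tags at day 0 and 68.1 and 61.9 at day 2 (log2 difference 2.28 ± 0.58, limma adjusted p = 0.0487). A peak at Mir199b (mm9 chr2:32174768-32175779) had 70.4 and 72.3 tags at 4 hours and 4.54 and 39.4 at day 2 (-2.27 ± 0.57, 0.0229), with day 2 replicates far apart. Mir1901 was higher at day 2 than at 4 hours (2.51 ± 0.63, 0.0206) and Gm19705 lower (-2.21 ± 0.61, 0.0458). Each of these 4 calls was lost without KDM5A_D2 replicate 1 and at least 1 other library, and the counts for day 2 against 4 hours ran from 0 without KDM5A_D2 replicate 1 or KDM5A_4h replicate 2 to 7 without KDM5A_4h replicate 1.

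KDM5C was mapped at day 2 alone, at low depth (2947000 and 8128000 reads), so no comparison was made. A KDM5C peak overlapped 115 noncoding peaks (26.8%) and 21.6% of coding peaks. The highest was Snord110, in Nop56, with 173.1 and 73.8 tags against 15.3 in the input, and Snora65 had 118.8 and 39.4 against 6.3. Both also held KDM5A.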

How the data were processed

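H3K4me3, KDM5A and KDM5C values were deposited as tag signal per peak, scaled by the authors to 10000000 reads per library; all values came out as whole reads to within 0.1 read, which gave each library's total. RNA was deposited as log2 normalised tags per kilobase per the table's name; size factors and any added constant are not given in the sources used here. Distances to the start site, in bp, are the authors' deposited annotation. Per the submitters' processing notes, the tools were STAR, Bowtie2, Subread, HOMER and DESeq2 with build mm9. The members, classes and lists were chosen with earlier results of these data known.

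ChIP tags were tested as log2(tags + 1) and RNA as deposited (at least 1 in at least 2 libraries) with limma 3.58.1 (mean-variance trend) in R 4.3.3, with Benjamini-Hochberg adjustment over each whole table and a threshold of 0.05. The other tools were edgeR 4.0.16 (on recovered reads), Python 3.11.15, pandas 2.3.3 and numpy 2.4.6. The scripts were tested on simulated data. ChIP peaks were joined by an overlap of at least 1 bp, and tags of several KDM5A peaks at 1 promoter were summed. Genes named in the text were taken from those the rule allows, not all of which are printed: microRNA peaks and list members, per comparison the 8 smallest p and the 4 highest and 4 lowest differences past the threshold, the 5 highest and 3 lowest in H3K4me3, the 5 highest in KDM5A, transcripts called in both RNA and H3K4me3, and the largest of each class. Same-numbered libraries deviated together in H3K4me3 (r 0.504 to 0.79 over 15 pairs of groups) and RNA (0.381 to 0.657 over 15). In KDM5A r was 0.047 to 0.333 over 3 pairs. The main and leave-one-out fits had no term for the replicate number, so their SE and adjusted p do not use this pairing. The number entered only the alternative fit with a block.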

Additional observations from a re-analysis of the deposited data

Results flagged for a closer look

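The RNA row of Mir199a-2 stood out because its difference between shKdm5ABC and shLuc was not the same at day 2 and day 0. The change between the times was 1.43 ± 0.24 on the log2 scale (limma interaction, adjusted p = 0.0471). In shLuc it was 7.45 and 7.35 at day 0 and 5.18 and 5.02 at day 2, and in shKdm5ABC 6.85 and 7.15, then 6.28 and 5.99. The call was kept in 1 of 4 other settings and without 1 of 8 libraries (highest adjusted p 0.183). The overlapping Dnm3os row gave 1.69 ± 0.35 (0.077).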

How the results depend on the processing

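Counts of noncoding peaks called between H3K4me3 columns are given in the order KDM5_KD_D0 against Control_D0, KDM5_KD_4h against Control_4h, KDM5_KD_D2 against Control_D2, Control_4h against Control_D0, Control_D2 against Control_D0, KDM5_KD_D0 against Control_D2, KDM5_KD_D2 against KDM5_KD_4h and KDM5_KD_4h against Control_D0. With the replicate block they were 264, 286, 221, 264, 103, 253, 247 and 186. With edgeR on recovered reads they were 58 (KDM5_KD_D0 against Control_D0), 54 (KDM5_KD_D2 against Control_D2), 28 (Control_4h against Control_D0), 55 (KDM5_KD_D0 against Control_D2) and 87 (KDM5_KD_D2 against KDM5_KD_4h), and after centring 59, 52, 29, 57 and 93 for the same 5 pairs. Leaving out 1 library gave 74 to 111, 136 to 175, 55 to 89, 51 to 99, 1 to 6, 77 to 111, 88 to 130 and 19 to 63. For KDM5A the block gave 1 (4 hours against day 0), 4 (day 2 against day 0) and 8 (day 2 against 4 hours), centring 4 and 6 for the last pair of comparisons, pseudocount 4 gave 0 and 1, and edgeR 4 for day 2 against day 0; leaving out 1 library gave 0 to 0, 0 to 1 and 0 to 7. For RNA the block gave 14 (knockdown at day 0), 9 (4 hours), 42 (day 2), 131 (shLuc at 4 hours) and 10 (change of the knockdown difference). Without the filter the knockdown counts were 0 at day 0 and 0 at 4 hours and the change of difference 0; centring gave 1 at 4 hours and 0 for the change, and no trend 0 for the change. Leaving out 1 library gave 0 to 0, 0 to 0 and 2 to 13 for knockdown, 57 to 66 and 72 to 83 for shLuc at 4 hours and day 2, and 0 to 3 for the change. The share of peaks with a KDM5A peak was 89.04% (noncoding) and 92.06% (coding) with KDM5A peaks of at least 20 tags, and 95.95% (coding) with the larger overlap required. The cause was not tested. No named call changed sign, but counts did shift between directions: KDM5_KD_4h against Control_D0 went from 34 higher and 45 lower to 95 and 91 with the block, and KDM5A at day 2 against day 0 from 1 higher and 0 lower to 1 and 3 after centring and to 0 and 1 without KDM5A_D2 replicate 2. Centring moved the KDM5A median of that comparison from 0.37 to -0.17 over all peaks and to -0.175 over noncoding ones. KDM5A and KDM5C libraries differ in depth, short RNA rows sit near their floor, and 2 libraries per group limit every test.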
